A study of Rattus norvegicus with 24 samples.

Results

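Rat brain that had been stab-wounded and treated with the dopamine D1-like receptor agonist SKF-81297 was compared with normal rat brain by bulk RNA sequencing. The comparison took every library that the labels name SKF (8) and every library that they name Normal Control (8), which is 16 of the 24 libraries of the series. The other 8 libraries are named Vehicle and are used here only for values set beside the main comparison. In the SKF group the agonist was injected into the peritoneum each day for 3 days, and the first dose was given 1 h after a stab wound to the forebrain. Normal Control and Vehicle are described by those names alone. The labels give no strain, age, sex, brain region, sampling time or sham operation for any group, and the tissue of all 24 samples is given as brain. They also do not say whether the 8 samples of a group came from 8 animals, so p-values measure the spread between these samples, which may be partly technical. Wound, surgery, agonist and the piece of brain taken cannot be told apart in SKF against Normal Control, since they change together.

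As background, a stab wound tears vessels and tissue, and injured cells release molecules that microglia and astrocytes sense through pattern recognition receptors. These cells secrete cytokines and chemokines that bring neutrophils and then monocytes from the blood, phagocytes clear debris, astrocytes become reactive, and matrix is laid down around the lesion. D1-like dopamine receptors couple to stimulatory G proteins and raise cyclic AMP. They are best known on striatal projection neurons and are also found on immune cells.

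RNA had been selected for poly(A) and made into strand-specific libraries. The 16 libraries held between 9727354 and 11996908 counted reads, and 14421 genes passed the filter on low counts. Principal components were taken over all 24 libraries, Vehicle included. On the first, with 54.3% of the variance, all 8 Normal Control libraries lay between -65.44 and -51.79 and all 8 SKF libraries between 17 and 31.04. The 8 Vehicle libraries lay between 17.96 and 47.64, so they overlapped SKF. Mitochondrial genes took 7.95% to 11.7% of counts in Normal Control and 7.23% to 9.54% in SKF. Markers of brain were present in both groups: Rbfox3, a nuclear protein of neurons, was at 168 to 218 counts per 1000000 reads (CPM) in Normal Control and 176 to 246 CPM in SKF, and did not pass the test (log2 difference 0.15 ± 0.10 SE, adjusted p = 0.197, but 0.0404 on the deposited TPM values).

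Single libraries stood apart on some lists. Normal Control 6 had 0 counts of the Y-linked gene Eif2s3y, against 547 to 833 in the other 15 libraries. Its score on a striatal list, meaning the average log2 CPM over the tested members, was 8.37 against 4.33 to 6.31 in the other 7 controls, where the 4.33 of Normal Control 1 was in turn below the 5.67 of the next lowest control. Its scores were the lowest of the controls for choroid plexus (0.85 against 3.99 to 6.49) and thalamus (2.61 against 4.53 to 5.98). Normal Control 4 had a skeletal muscle score of 7.36 against 1.07 to 2.07 in the other 7. SKF 4 had the highest thalamus score of the SKF group (4.65 against 2.38 to 4.09). Values without Normal Control 4 and 6 are given beside some of the lists and genes, and lists without such a value could move too. Without these 2 libraries the median went from -0.49 to -0.30 for immediate early genes. It went from -0.42 to -0.22 for dopamine and cyclic AMP genes. Protein folding and stress genes went from 16 to 12 higher.

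In SKF against Normal Control 3682 genes were higher and 3557 lower at an adjusted p under 0.05 by edgeR's quasi-likelihood test, out of 14421 tested. That is 25.5% and 24.7% of all tested genes, 50.2% in all, and every count of list members below is read against these shares. The split moved with the unit: on log2 of the deposited TPM values (transcripts per 1000000), with a pseudocount of 1 and limma, 4996 genes were higher and 2296 lower, and the median of all genes moved by 0.0985. Large changes were mostly rises. There were 972 genes that rose at least 2-fold, 403 at least 4-fold and 44 at least 32-fold, against 482 that fell at least 2-fold and 64 at least 4-fold. The median log2 difference of all tested genes was -0.01. In 1658 genes (11.5%) every SKF library lay above every Normal Control library, and in 1025 genes (7.11%) every one lay below. In these pieces of tissue a change in the number of cells of a type and a change in RNA per cell cannot be told apart.

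**Figure D1:**
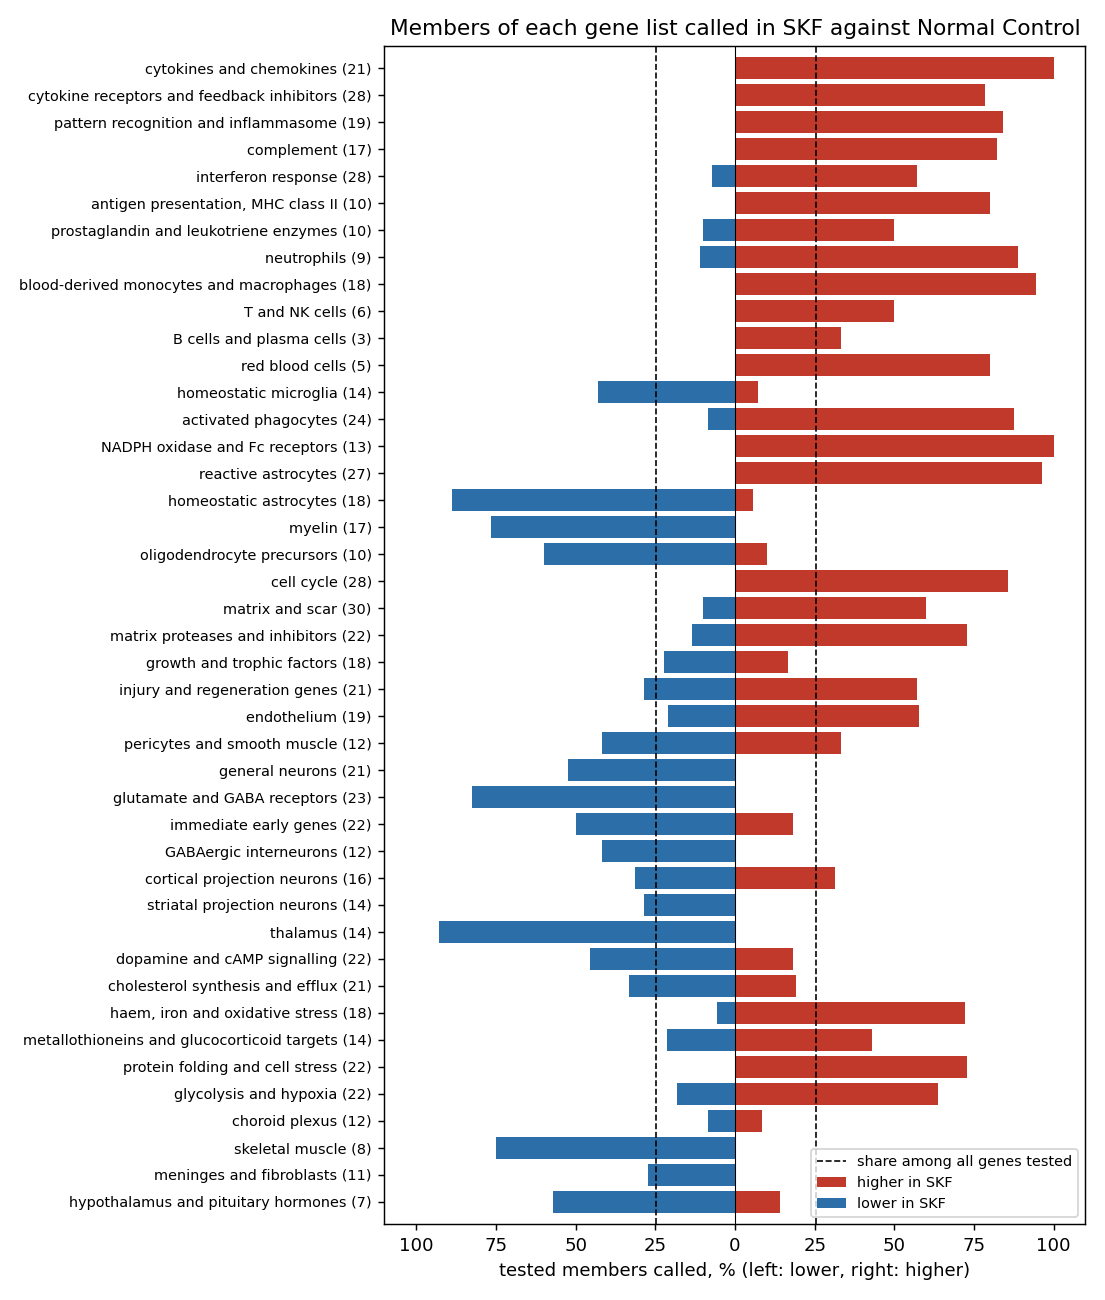
Bars give, for each gene list, the share of its tested members that were higher or lower in the 8 SKF than in the 8 Normal Control libraries at an adjusted p under 0.05, with the shares of all 14421 tested genes for reference. All 21 tested of 29 listed cytokine and chemokine genes were higher, and 13 of 14 thalamus genes were lower. A gene could pass the low-count filter on SKF or Vehicle libraries alone.

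The signals that recruit immune cells were far above normal brain in the agonist group. All 21 tested cytokine and chemokine genes rose, with a median log2 difference of 4.30, and in 19 of them the groups did not overlap. A further 7 genes of the list that are in the table were too low to test, and these did not all rise. Mean counts in Normal Control and SKF were 4.75 and 3.75 for Ccl5, 1.375 and 0.5 for Cxcl9 and 0.125 and 0 for Il12b. They were 0.375 and 5.375 for Cxcl11, 3.25 and 5.5 for Il1a, 0 and 0.25 for Csf2 and 0.125 and 7.75 for Csf3. A gene could pass the low-count filter on its SKF or Vehicle libraries alone, as Cxcl2 and Cxcl3 did. Tested members without reads in the controls could thus only rise. Ccl2, the chemokine that draws monocytes, was at 0 to 0.278 CPM in Normal Control (median 0.139) and at 36.5 to 79.0 CPM in SKF (median 68.0). The lowest SKF library, SKF 8, was thus far above the highest control, and the log2 difference was 8.81 ± 0.39 (adjusted p = 9.45e-15). Ccl7, another monocyte chemokine, rose from at most 0.217 CPM to between 16.4 and 45.7 CPM (7.93 ± 0.39).

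Neutrophil chemokines rose from no reads or almost none. Cxcl3 had no read in any Normal Control library and was at 5.22 to 32.6 CPM in SKF, which is at least 55.2-fold higher when each control is set to a floor of 3 counts. Cxcl2 was likewise at 0 in all 8 controls and at 4.62 to 19.3 CPM in SKF, at least 34.9-fold higher. Cxcl1, another ligand of the same receptor, rose by 8.24 ± 0.66 on the log2 scale, and that receptor, Cxcr2, rose by 5.40 ± 0.37. Il11, a cytokine of the interleukin-6 family, was at 0 in the controls and at 2.48 to 5.77 CPM in SKF, at least 14.0-fold higher.

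The classical inflammatory cytokines rose from very low levels. Il1b was at 0 to 0.766 CPM in Normal Control and 1.97 to 7.17 CPM in SKF, a log2 difference of 4.13 ± 0.94 (adjusted p = 0.000915). Tnf went from 0.0988 to 0.593 CPM to 1.33 to 2.25 CPM (2.14 ± 0.26). Il6 was at 0.382 CPM in Normal Control 2 and at a median of 0 over all controls, against 0.655 to 2.39 CPM in SKF, so that its log2 difference of 4.30 became 5.40 without that library. All 3 genes were under 10 CPM in every SKF library, and in all 3 the groups did not overlap.

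The promoters of several of these genes share short letters that resemble the binding motif of NF-kB, the transcription factor that many innate receptors activate. Of the 21 tested genes of the list, 14 had a RefSeq promoter of 250 bases before to 50 after the start site, and 7 of them (50%) held GGG and TTCC with any 3 bases between them, on either strand. The same letters were in 6.48% of the 10657 tested genes with such an entry. The windows below are from the GRCr8 assembly, while the counts were made on mRatBN7.2. They are shown because these genes include Cxcl2, which is among the 6 largest rises by the fit. Each reads 5′ to 3′ in the direction of the gene, with the matches in capitals.
Cxcl2 (chr14:17467280-17467349, minus strand): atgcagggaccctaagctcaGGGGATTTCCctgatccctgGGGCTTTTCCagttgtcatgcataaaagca
Cxcl1 (chr14:17479375-17479443, minus strand): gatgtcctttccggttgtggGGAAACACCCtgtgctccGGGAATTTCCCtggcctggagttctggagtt
Cxcl6 (chr14:17596475-17596525, minus strand): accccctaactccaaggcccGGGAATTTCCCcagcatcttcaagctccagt
Ccl7 (chr10:67514016-67514065, plus strand): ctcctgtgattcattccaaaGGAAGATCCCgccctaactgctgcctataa
Ccl20 (chr9:91837050-91837099, plus strand): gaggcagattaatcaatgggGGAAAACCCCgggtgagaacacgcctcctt
Il6 (chr4:5894614-5894663, minus strand): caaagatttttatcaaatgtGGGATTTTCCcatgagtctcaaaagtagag
The Cxcl2 matches begin 74 and 54 bases before the start site, and the single Il6 match begins 68 bases before it. The seventh gene, Cxcl10, a ligand for T cell receptors of the CXCR3 type, held matches that begin 187 and 128 bases before its start and rose by 1.26 ± 0.31. In Cxcl1, Cxcl6 and Cxcl10 an 11-base run matches on both strands. A match of letters is a description of the sequence and not a measured binding site.

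Receptors for these signals rose with them. Of 28 tested cytokine receptors and feedback inhibitors, 22 were higher and 0 lower (median 1.70). Csf2rb, the shared signalling chain of the GM-CSF, interleukin-3 and interleukin-5 receptors, went from 0.817 to 1.67 CPM to 32.9 to 43.8 CPM (4.91 ± 0.14). Osmr, the oncostatin M receptor, went from 2.13 to 3.52 CPM to 18.5 to 31.6 CPM (3.04 ± 0.13). The negative regulators rose too: Il1r2, a decoy receptor for interleukin-1, by 5.96 ± 0.49, and Socs3, which blocks cytokine receptor signalling, by 5.73 ± 0.23.

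Innate sensing and complement were higher as groups. Among pattern recognition and inflammasome genes 16 of 19 rose and 0 fell (median 1.57). Cd14, the co-receptor for lipopolysaccharide, was at 0.217 to 2.09 CPM in Normal Control and 22.5 to 26.8 CPM in SKF (4.53 ± 0.20). Casp4, an inflammatory caspase, rose by 2.12 ± 0.13, and Clec7a, a lectin receptor for glucans, by 4.72 ± 0.34. In the complement list 14 of 17 rose and 0 fell (median 1.37).

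The interferon-response list was mixed. It had 16 of 28 members higher and 2 lower, with a median of 0.72. Ifitm3, which blocks virus entry, rose from 6.94 to 10.4 CPM to 36.7 to 47.7 CPM (2.25 ± 0.12). Gbp2, a guanylate-binding protein, rose by 2.19 ± 0.19 and Ifit3, an antiviral RNA-binding protein, by 2.33 ± 0.41. Other classical targets did not pass the test: Irf7, a transcription factor of the type I response, was at -0.29 ± 0.22 (adjusted p = 0.282), and Rsad2, the antiviral enzyme viperin, at 0.01 ± 0.25 (0.967). Ifit2 was lower by -0.38 ± 0.15 (adjusted p = 0.0405), a call lost in 9 of the 16 fits that left out 1 library (Normal Control 1, 2, 5 or 8, or SKF 2, 3, 4, 7 or 8; adjusted p 0.0541 to 0.0837), without the filter on low counts (0.0521) and on TPM values (0.145).

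The interferon-stimulated response element is bound by STAT and IRF factors, and its letters were searched on both strands as GAAA, any 2 bases and GAAA. They were in 14 of the 21 interferon-list promoters with an entry (66.7%), against 2.81% of the 10657. Of those 14 genes, 10 rose and 4 did not pass the test, and of the 7 genes without the letters 5 rose and 2 did not. The windows are shown because genes that rose and genes that did not carry the same letters.
Ifitm3, higher (chr1:205541773-205541822, minus strand): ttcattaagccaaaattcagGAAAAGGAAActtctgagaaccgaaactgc
Gbp2, higher (chr2:234005676-234005725, plus strand): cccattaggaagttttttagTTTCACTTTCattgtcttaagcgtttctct
Irf7, not called (chr1:205800063-205800112, minus strand): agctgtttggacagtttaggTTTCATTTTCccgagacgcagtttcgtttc
Rsad2, not called (chr6:48788238-48788287, minus strand): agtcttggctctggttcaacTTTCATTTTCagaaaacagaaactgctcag
Capitals mark the match, on the GRCr8 assembly as above. The letters TGAGTCA (AP-1), TTCNNNGAA (STAT) and TGACGTCA (CRE, the element bound by CREB) were also searched on both strands, and were in 3.42%, 6.44% and 3.11% of all 10657 promoters. The STAT letters were in 7 of the 21 interferon-list promoters (33.3%). AP-1 letters were in 4 of 24 reactive astrocyte promoters (16.7%) and 2 of 14 cytokine promoters (14.3%). They were in 1 of 15 injury and regeneration promoters (6.67%) and 0 of 16 immediate early gene promoters. CRE letters were in 2 of 16 immediate early gene promoters (12.5%) and 0 of 21 interferon-list promoters. With so few promoters per list these shares are coarse.

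Markers of blood-derived cells were high in the agonist group. Of 18 tested monocyte and macrophage genes 17 rose and 0 fell (median 2.61), and the list score was 0.85 to 1.43 in Normal Control and 3.58 to 4.20 in SKF. Msr1, a scavenger receptor, was at 0 to 0.198 CPM in the controls and 19.0 to 28.8 CPM in SKF (log2 difference 8.29, 95% interval 7.77 to 8.81). Ccr2, the receptor for Ccl2, rose by 5.47 ± 0.46. Of 9 neutrophil genes tested, from a list of 19, 8 rose and 1 fell (median 4.15). Without Normal Control 4 and 6, 8 of 10 rose and 0 fell (median 3.37). Members too low to test in the main fit went both ways. Mean counts in Normal Control and SKF were 6.125 and 1 for Cxcr1, 2.5 and 1.125 for Camp and 1.125 and 0.375 for Ngp. They were 5.375 and 10.875 for Fpr1, 0.75 and 2 for Fpr2, 0.125 and 2.25 for Retnlg and 0.625 and 1.375 for Padi4. For Ltf, Mpo and Elane the means were 0, 0.125 and 0 in Normal Control and 0, 0.25 and 0.25 in SKF. S100a9, a calprotectin subunit abundant in neutrophils, went from 0.0927 to 0.691 CPM to 7.21 to 16.0 CPM (4.82 ± 0.31). Trem1, which amplifies inflammation, and Mcemp1, a membrane protein of myeloid cells, had no read in any control and were at least 15.3-fold and 26.9-fold higher. The neutrophil gene that fell was Prtn3, a granule protease (-0.84 ± 0.25), and its call was lost without Normal Control 4 and 6 (adjusted p = 0.0528).

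Lymphocyte markers were near the limit of detection. Only 6 of 21 T and NK cell genes could be tested, and 3 of them rose. Mean counts of the untested members went both ways. In Normal Control and SKF they were 8.25 and 4.5 for Cd3e, 5.125 and 3.625 for Prf1 and 1.625 and 1.5 for Gzma. Cd5 (0.875 and 0.75) and Nkg7 (0.75 and 0.625) were also lower. Cd8b (0.125 and 2.75), Cd3g (0.125 and 1.25), Klrd1 (0.375 and 1), Cd3d (0.125 and 0.5) and Cd247 (2.875 and 3.5) were higher. Klrb1 had no counts. Cd2, an adhesion receptor of T cells, was at 0 to 0.490 CPM in Normal Control and 0.816 to 1.68 CPM in SKF, and Cd8a at 0 to 0.363 CPM and 0.365 to 3.54 CPM. Of 3 tested B cell genes 1 rose, Ighm (1.09 ± 0.33), and its groups overlapped.

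Red blood cell genes were higher as well. Hba-a2, an alpha globin, was at 187 to 315 CPM in Normal Control and 683 to 2732 CPM in SKF, and 4 of the 5 tested members rose (median 2.33). The list score was 3.22 to 3.84 in Normal Control and 4.64 to 5.99 in SKF. The globin copies are near-identical in sequence, so their separate values are uncertain. The part of blood left in the tissue in the blood-cell and immune results was not tested.

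Activated phagocyte genes rose while several markers of resting microglia fell. Of 24 activated phagocyte genes 21 rose and 2 fell (median 2.51). Gpnmb, a membrane glycoprotein of lipid-loaded phagocytes, went from 9.56 to 16.3 CPM to 205 to 397 CPM (4.53 ± 0.13), and Lgals3, galectin-3, from 1.34 to 3.43 CPM to 68.7 to 134 CPM (5.42 ± 0.18). Cd68, a lysosomal protein of phagocytes, was at 0.587 to 1.68 CPM in the controls and 6.09 to 11.0 CPM in SKF. Spp1, osteopontin, rose by 5.89 ± 0.24. One that fell was Lpl, lipoprotein lipase (-0.91 ± 0.15).

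In the list of homeostatic microglia 6 of 14 genes fell and 1 rose, with a median of -0.16. Tmem119, a surface marker of resident microglia, was at 8.80 to 25.6 CPM in Normal Control and 1.59 to 7.15 CPM in SKF, with no overlap (-1.65 ± 0.23). P2ry12, the receptor by which microglia sense ADP, fell by 1.52 on the log2 scale (SE 0.22) and Selplg, a selectin ligand, by 1.54 (SE 0.15). The gene that rose was Aif1, which encodes Iba1 (0.74 ± 0.17), at 6.55 to 10.1 CPM in Normal Control and 6.65 to 19.0 CPM in SKF, so its groups overlapped. Cx3cr1, the fractalkine receptor, and Csf1r, on which microglia depend, did not pass the test (0.01 and 0.21).

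All 13 tested genes of the NADPH oxidase and Fc receptors rose without overlap (median 2.32), among them Ncf4, a cytosolic oxidase subunit (3.67 ± 0.20), and Fcgr2b, the inhibitory Fc gamma receptor (3.25 ± 0.16). Of 10 MHC class II genes 8 rose (median 2.00), with RT1-DMb, which helps load peptides, at 7.36 to 10.4 CPM and 24.1 to 38.1 CPM. The rat class II genes include close copies, so reads may be split between them. Normal Control 6 had the lowest class II score of the controls, and the 8 calls stood without Normal Control 4 and 6 (median 1.92). The common leukocyte antigen Ptprc, CD45, went from 3.54 to 7.15 CPM to 18.7 to 30.2 CPM (2.16 ± 0.15).

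**Figure D2:**
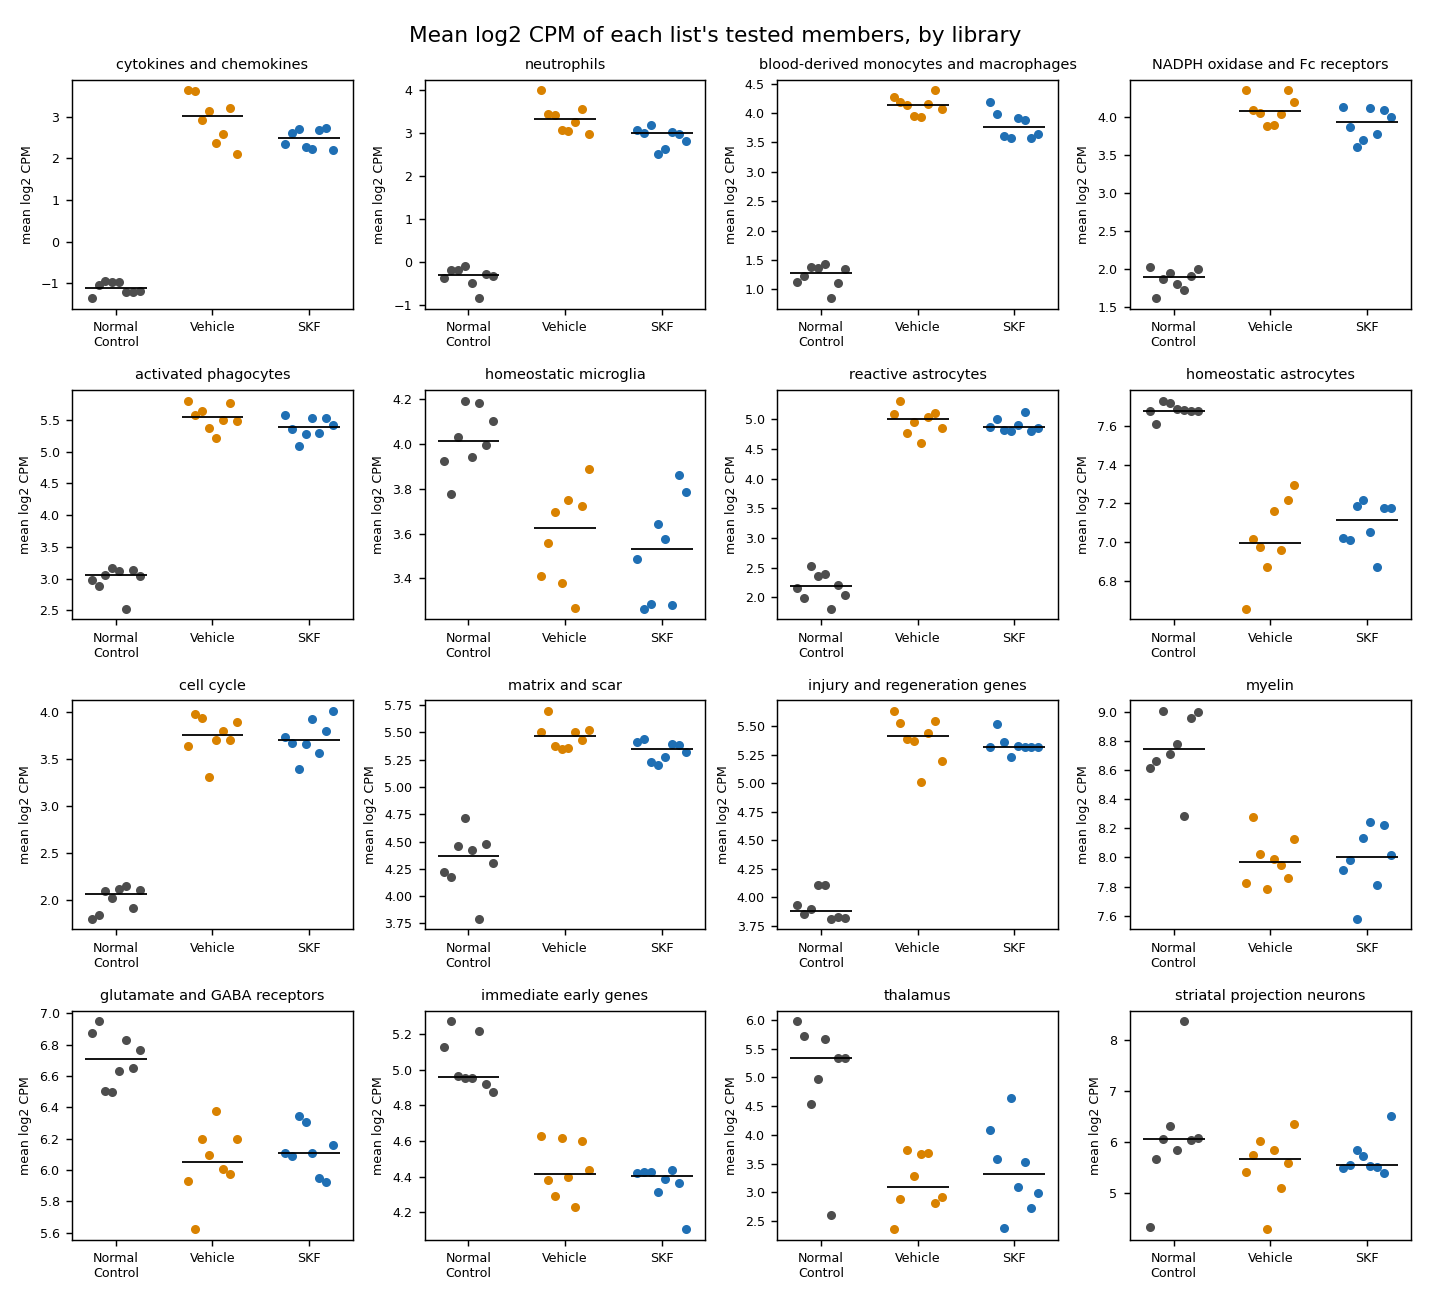
Each panel is a gene list and each point a library, with the average log2 CPM of the tested members on the vertical axis for Normal Control, Vehicle and SKF. The cytokine scores of the 8 SKF libraries lie between 2.21 and 2.73 and those of the 8 Normal Control libraries between -1.37 and -0.96.

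Reactive astrocyte genes rose almost without exception, while genes of resting astrocytes fell. Of 27 reactive genes 26 rose and 0 fell (median 2.61), and 21 did not overlap. Gfap, the intermediate filament of astrocytes, was at 411 to 830 CPM in Normal Control and 3460.1 to 3947 CPM in SKF (2.54 ± 0.12, adjusted p = 8.73e-16). Lcn2, lipocalin-2, went from at most 1.85 CPM to between 58.0 and 194 CPM (7.05 ± 0.38). Cd44, a hyaluronan receptor, went from 6.61 to 12.1 CPM to 102 to 150 CPM. Of 18 homeostatic astrocyte genes 16 fell and 1 rose (median -0.64). Slc1a2, the main glutamate transporter, fell by 0.88 (SE 0.10), Gjb6, connexin 30, by 1.32 (SE 0.23), and S100b went from 765 to 1105 CPM to 402 to 584 CPM. The exception was Glul, glutamine synthetase, which rose by 0.51 ± 0.06.

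Myelin genes were lower. Of 17 tested 13 fell and 0 rose (median -0.85). Mal, a proteolipid of compact myelin, was at 440 to 713 CPM in Normal Control and 181 to 282 CPM in SKF (-1.41 ± 0.10). Mbp, myelin basic protein, was at 6070.1 to 10529 CPM and 3418 to 6256 CPM (-0.93 ± 0.12), and SKF 7 reached into the control range. Myrf, a transcription factor needed for myelination, did not pass the test (-0.10). Of 10 precursor genes 6 fell and 1 rose, with Gpr17, a receptor of cells about to differentiate, at -1.50 ± 0.14.

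Cell division genes rose as a block, with 24 of 28 higher and 0 lower (median 1.85). Mcm5, a subunit of the replicative helicase, went from 0.685 to 3.25 CPM to 18.9 to 28.5 CPM (4.04 ± 0.18), the highest control being Normal Control 6. Rrm2, which makes deoxynucleotides, rose by 2.95 ± 0.13, Top2a by 3.08 ± 0.21 and Mki67, the Ki-67 antigen, by 2.33 ± 0.16.

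Matrix and its remodelling enzymes were also higher. In the matrix and scar list 18 of 30 rose and 3 fell (median 0.77), with Fn1, fibronectin, at 37.6 to 71.7 CPM and 236 to 408 CPM. Sparc, a matrix protein also made by resting glia, was among those that fell (-0.60 ± 0.12). Of 22 proteases and inhibitors 16 rose and 3 fell (median 1.81). Timp1, an inhibitor of matrix metalloproteinases, went from 0.759 to 2.77 CPM to 83.0 to 128 CPM (5.80 ± 0.20). Mmp3, stromelysin, rose by 7.00 ± 0.66, whereas Timp4 fell by 1.22 (SE 0.19).

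**Figure D3:**
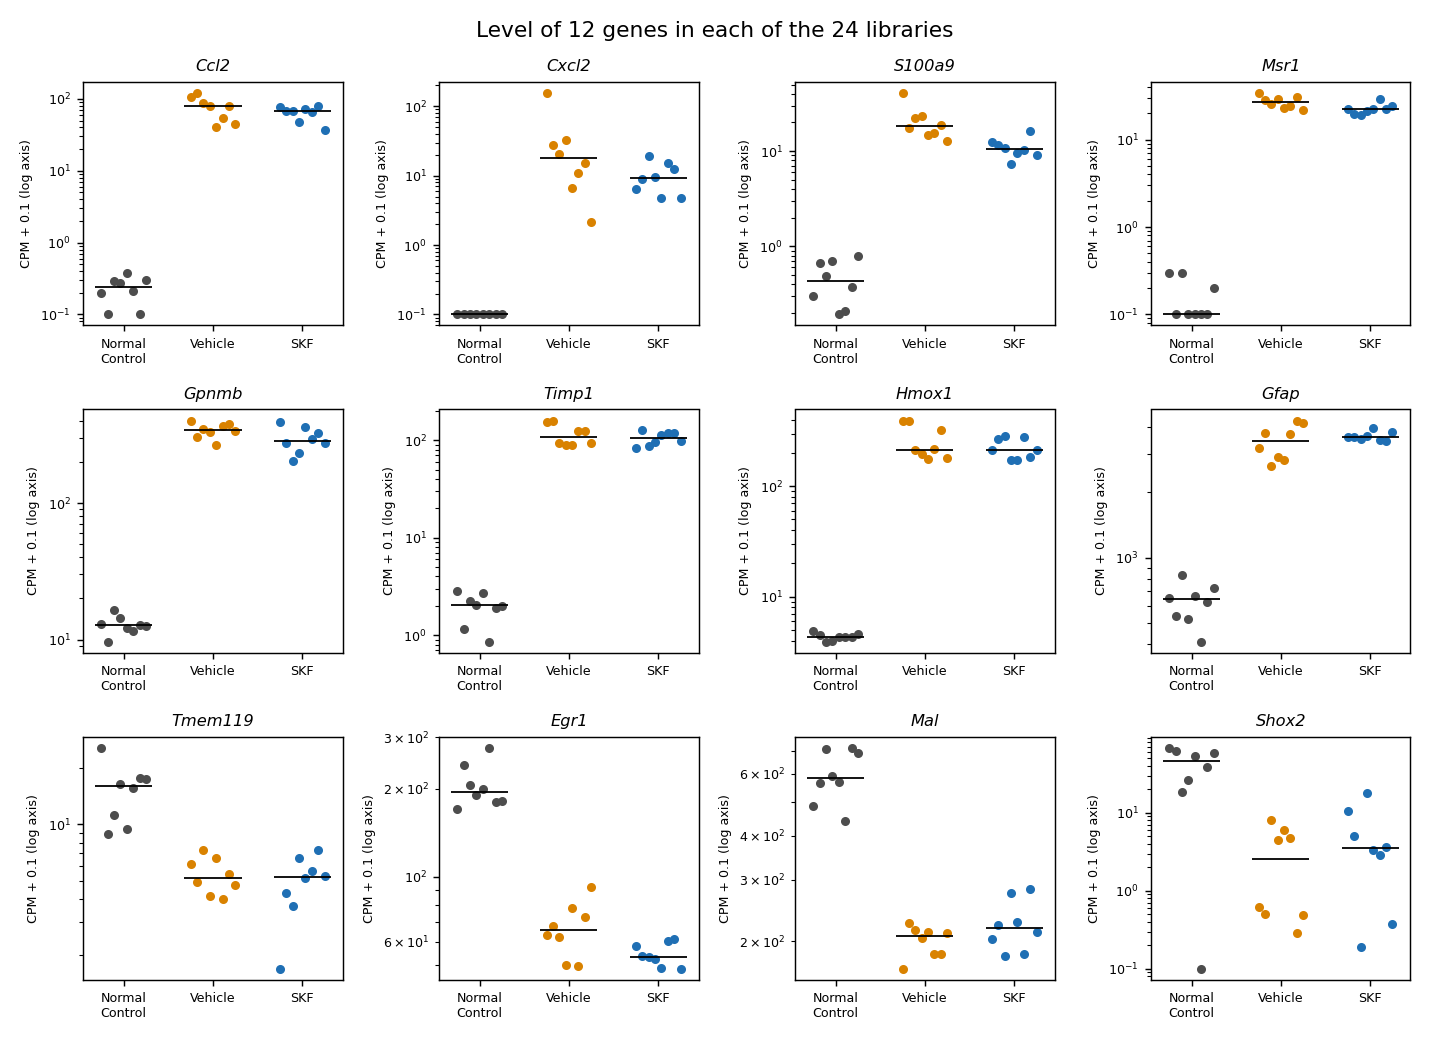
Points give the level of 12 named genes in each library in CPM plus 0.1 on a log axis, with Normal Control, Vehicle and SKF in separate columns. Ccl2 lies at 0 to 0.278 CPM in the Normal Control libraries and at 36.5 to 79.0 CPM in the SKF libraries, and Mal is below 300 CPM in every SKF library.

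Vessel genes moved in both directions. Of 19 endothelial genes 11 rose and 4 fell (median 0.44). The leukocyte adhesion receptors Selp and Sele, the P- and E-selectins, rose by 3.40 ± 0.32 and 3.27 ± 0.37, and Icam1 by 2.08 ± 0.15. Vcam1, the ligand of leukocyte VLA-4, was lower (-0.67). Slco1a4, a transporter of the blood-brain barrier, went from 71.5 to 105 CPM to 39.3 to 59.8 CPM.

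Haem breakdown and stress responses rose. Hmox1, which degrades haem, was at 3.82 to 4.74 CPM in all 8 controls and 171 to 282 CPM in SKF (5.72 ± 0.22), and 13 of 18 genes of the haem, iron and oxidative stress list rose while 1, the transferrin receptor Tfrc, fell (-0.35 ± 0.08). Of 22 protein folding and stress genes 16 rose and 0 fell (median 0.37). Hspb1, a small heat shock protein, went from 3.54 to 23.2 CPM to 266 to 358 CPM, with Normal Control 4 the highest control. Mt2A, a metal-binding metallothionein, rose by 3.45 ± 0.15. Mt3, the neuronal metallothionein, was lower by -0.34 ± 0.13 (adjusted p = 0.0297), a call lost on TPM values (0.0647) and without Normal Control 8, SKF 2, SKF 5 or SKF 6 (0.0536 to 0.0639). Of 21 injury and regeneration genes 12 rose and 6 fell (median 0.83): Atf3, a transcription factor of injured neurons, rose by 4.11 ± 0.21 and Sprr1a, linked to axon regrowth, by 3.62 ± 0.53. Hbegf, an epidermal growth factor ligand, rose by 2.37 ± 0.18, and Bdnf, a neurotrophin, went from 12.6 to 23.4 CPM to 3.72 to 7.03 CPM (-1.70 ± 0.20).

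Other lists moved less or in both directions. Of 10 prostaglandin and leukotriene enzymes 5 rose and 1 fell (median 0.39), with Tbxas1, thromboxane synthase, at 2.03 ± 0.18 and Ptgds, a prostaglandin D synthase of meninges and choroid plexus, at -1.02 ± 0.20. Ptgs2, which encodes cyclooxygenase-2, did not pass the test (0.33). Of 22 glycolysis and hypoxia genes 14 rose and 4 fell (median 0.34), among them Hk3, a hexokinase of myeloid cells, at no more than 0.191 CPM in Normal Control and 2.74 to 7.26 CPM in SKF. Cholesterol synthesis and efflux had 4 of 21 genes higher and 7 lower (median -0.04), and on TPM values 5 higher and 2 lower (median 0.07). In it Soat1, which esterifies cholesterol, rose by 0.78 ± 0.09. Pericytes and smooth muscle had 4 of 12 higher and 5 lower (median 0.02), and on TPM values 6 higher and 3 lower. Of these, Tagln, an actin-binding protein of smooth muscle, was at 18.3 to 33.6 CPM in Normal Control and 164 to 321 CPM in SKF. Growth and trophic factors had 3 of 18 higher and 4 lower (median -0.05), shares below the 25.5% and 24.7% of all tested genes. On TPM values this list had 5 of 21 higher and 3 lower (median 0.16).

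Several neuronal genes were lower than in normal brain. Of 21 general neuronal genes 11 fell and 0 rose (median -0.24), and of 23 glutamate and GABA receptor genes 19 fell and 0 rose (median -0.64). Gabra5, a GABA-A receptor subunit of hippocampus and cortex, went from 36.4 to 67.6 CPM to 13.7 to 21.0 CPM, and Vamp2, a synaptic vesicle protein, from 768 to 919 CPM to 545 to 716 CPM. Of 12 genes of GABAergic interneurons 5 fell and 0 rose (median -0.24), among them the neuropeptide gene Vip (-1.03 ± 0.23). Cortical projection neuron genes had 5 of 16 higher and 5 lower (median 0.06), and on TPM values 7 higher and 2 lower (median 0.18). Tbr1, a transcription factor of deep cortical layers, rose by 0.49 ± 0.11, and Neurod6 fell by 1.93 (SE 0.25). On TPM values 2 general neuronal genes were higher and 10 lower.

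The genes that neurons switch on with activity were among the largest falls. Npas4, which is induced by calcium entry, was at 3.15 to 11.1 CPM in Normal Control and 0.307 to 1.59 CPM in SKF (-2.76 ± 0.30), and Egr1 at 171 to 276 CPM and 48.4 to 61.4 CPM (-1.91 ± 0.11), both without overlap. Arc, Egr4 and Nr4a1 fell by 2.26, 2.51 and 2.29 on the log2 scale. The list as a whole had 11 of 22 members lower and 4 higher (median -0.49). Fos did not pass the test (0.20 ± 0.16, adjusted p = 0.301), and Jun, Ier2 and Ier3 rose (1.11, 1.31 and 1.66), so the list did not move as one.

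Thalamus markers were lower in SKF, while the hormone, choroid plexus and meningeal lists moved less or changed with the setting. Of 14 thalamus genes 13 fell and 0 rose, with a median of -1.63, or -1.90 with 13 lower again without Normal Control 4 and 6. Shox2, a thalamic transcription factor, was at 0 to 68.1 CPM in Normal Control (median 45.8) and 0.0913 to 18.1 CPM in SKF (-2.91 ± 0.75), and the value of 0 was in Normal Control 6. Its difference was -3.50 (adjusted p = 0.0299) with sample weights in limma voom, and -2.83 (0.0681) on TPM values with a pseudocount of 0.1. Gbx2 (-2.61 ± 0.57) and Slc17a6, a vesicular glutamate transporter (-2.45 ± 0.54), went the same way. The score ranged from 4.53 to 5.98 in 7 controls and from 2.38 to 4.65 in SKF. Of 7 hypothalamic and pituitary hormone genes 4 fell and 1 rose (median -1.50), with a median of -1.38 without Normal Control 4 and 6, and on TPM values 1 of 8 fell and 1 rose. Choroid plexus genes showed 1 higher and 1 lower of 12 (median -0.39). There were 3 lower without Normal Control 4 and 6 (median -0.44) and 0 lower on TPM values (median 0.09). Of 11 meningeal genes 3 fell. Mas1, the angiotensin-(1-7) receptor, was among the largest falls (-2.83 ± 0.28), at 5.28 to 17.1 CPM and 0.730 to 2.21 CPM, as was Wnt9b (-2.54 ± 0.59). The part of the tissue piece taken in these neuronal and regional values was not tested.

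The agonist's own receptor genes did not pass the test. Drd1 was at 10.8 to 253 CPM in Normal Control (median 38.0) and 20.8 to 75.7 CPM in SKF (median 33.9), a log2 difference of -0.70 ± 0.48 (adjusted p = 0.241) that was 0.12 without Normal Control 6. Drd5, the other D1-like receptor gene, was too low to test, at 7.13 ± 1.64 counts in Normal Control and 5.50 ± 2.07 counts in SKF (SD, n = 8 each). Drd2 was at -1.03 ± 0.54 (adjusted p = 0.124), and at -0.16 when Normal Control 6 was left out. Leaving out Normal Control 1 instead gave -1.21 (adjusted p = 0.0467). Of 22 dopamine and cyclic AMP genes 10 fell and 4 rose (median -0.42). Ddc, which makes dopamine and serotonin from their precursors, went from 8.78 to 13.6 CPM to 1.24 to 4.17 CPM (-2.11 ± 0.25). Pde10a, a striatal phosphodiesterase, was at -1.45 ± 0.39, and at -0.79 without Normal Control 6. The striatal list, with 4 of 14 lower, had a median of -0.94 that became 0.11 without Normal Control 4 and 6.

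Skeletal muscle genes were the clearest case of differences whose size was carried by 1 library. Myh4, a fast muscle myosin, had a log2 difference of -5.99 ± 1.40, with 681 CPM in Normal Control 4 and a control median of 2.83 CPM. It was still called at -0.99 (adjusted p = 0.00156) without Normal Control 4, and at -0.95 (0.00337) without Normal Control 4 and 6. Its call was lost with sample weights in limma voom (-2.01, adjusted p = 0.175) and on TPM values with a pseudocount of 1 (-1.07, 0.18). Acta1, skeletal actin, was at -4.01 ± 1.07 and at -0.11 (adjusted p = 0.676) without Normal Control 4. The list had 6 of 8 lower (median -3.27), and 1 of 8 lower (median 0.07) without Normal Control 4 and 6.

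The same genes can be set beside the Vehicle group, with the reminder that both comparisons use the same 8 Normal Control libraries. In Vehicle against Normal Control 3879 genes were higher and 3904 lower (26.9% and 27.1%, together 54%). The median log2 difference of the cytokine list was 5.78 in Vehicle and 4.30 in SKF. It was 4.80 and 4.15 for neutrophils, 3.07 and 2.61 for monocytes and macrophages, 2.78 and 2.61 for reactive astrocytes, 1.88 and 1.85 for the cell cycle, and -0.82 and -0.85 for myelin. These are values side by side and not tests of a difference.

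The direct test of SKF against Vehicle called 0 genes by edgeR (0%) and 6 genes by DESeq2 (1 higher, 5 lower). By edgeR 715 of the 14421 tested genes had an unadjusted p under 0.05. That is near the number that this threshold passes when no gene differs. The intervals that follow are 95% intervals of 1 gene each, not adjusted for the 14421 tests. For Gfap the SKF minus Vehicle log2 difference was 0.08 (-0.15 to 0.31), for Timp1 -0.14 (-0.42 to 0.14), for Ccl2 -0.24 (-0.65 to 0.16) and for Mal 0.16 (-0.05 to 0.37). For these genes the intervals leave room for differences of up to about the sizes given, so equal levels were not shown.

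Some named genes had lower values in SKF than in Vehicle without passing the adjustment. S100a9 had a median of 10.5 CPM in SKF and 18.2 CPM in Vehicle (-0.93, interval -1.35 to -0.52, adjusted p = 0.485). Il1b had medians of 4.51 and 6.88 CPM (-1.92, interval -3.18 to -0.65, adjusted p = 0.838), and its highest Vehicle library, Vehicle 1, was at 91.1 CPM. Cxcl2 had medians of 9.05 and 17.8 CPM (-1.73, interval -3.24 to -0.22, adjusted p = 0.937), with Vehicle spanning 2.05 to 153 CPM. The activity gene Npas4 was at medians of 0.864 and 1.39 CPM (-0.82, interval -1.48 to -0.16, adjusted p = 0.895). In the cytokine list 19 of the 21 SKF minus Vehicle values were below 0, with a median of -0.54, against a median of 0.00 over all tested genes. Other lists were as one-sided: 12 of 12 choroid plexus values were below 0 (median -0.51), 9 of 11 meningeal values (-0.30) and 9 of 9 neutrophil values (-0.50). Thalamus went the other way, with 1 of 14 below 0 (median 0.30). These counts thus do not single out the cytokine list. The cytokine scores spanned 2.21 to 2.73 over the SKF libraries and 2.10 to 3.65 over the Vehicle libraries, so every SKF score lay within the Vehicle range.

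**Figure D4:**
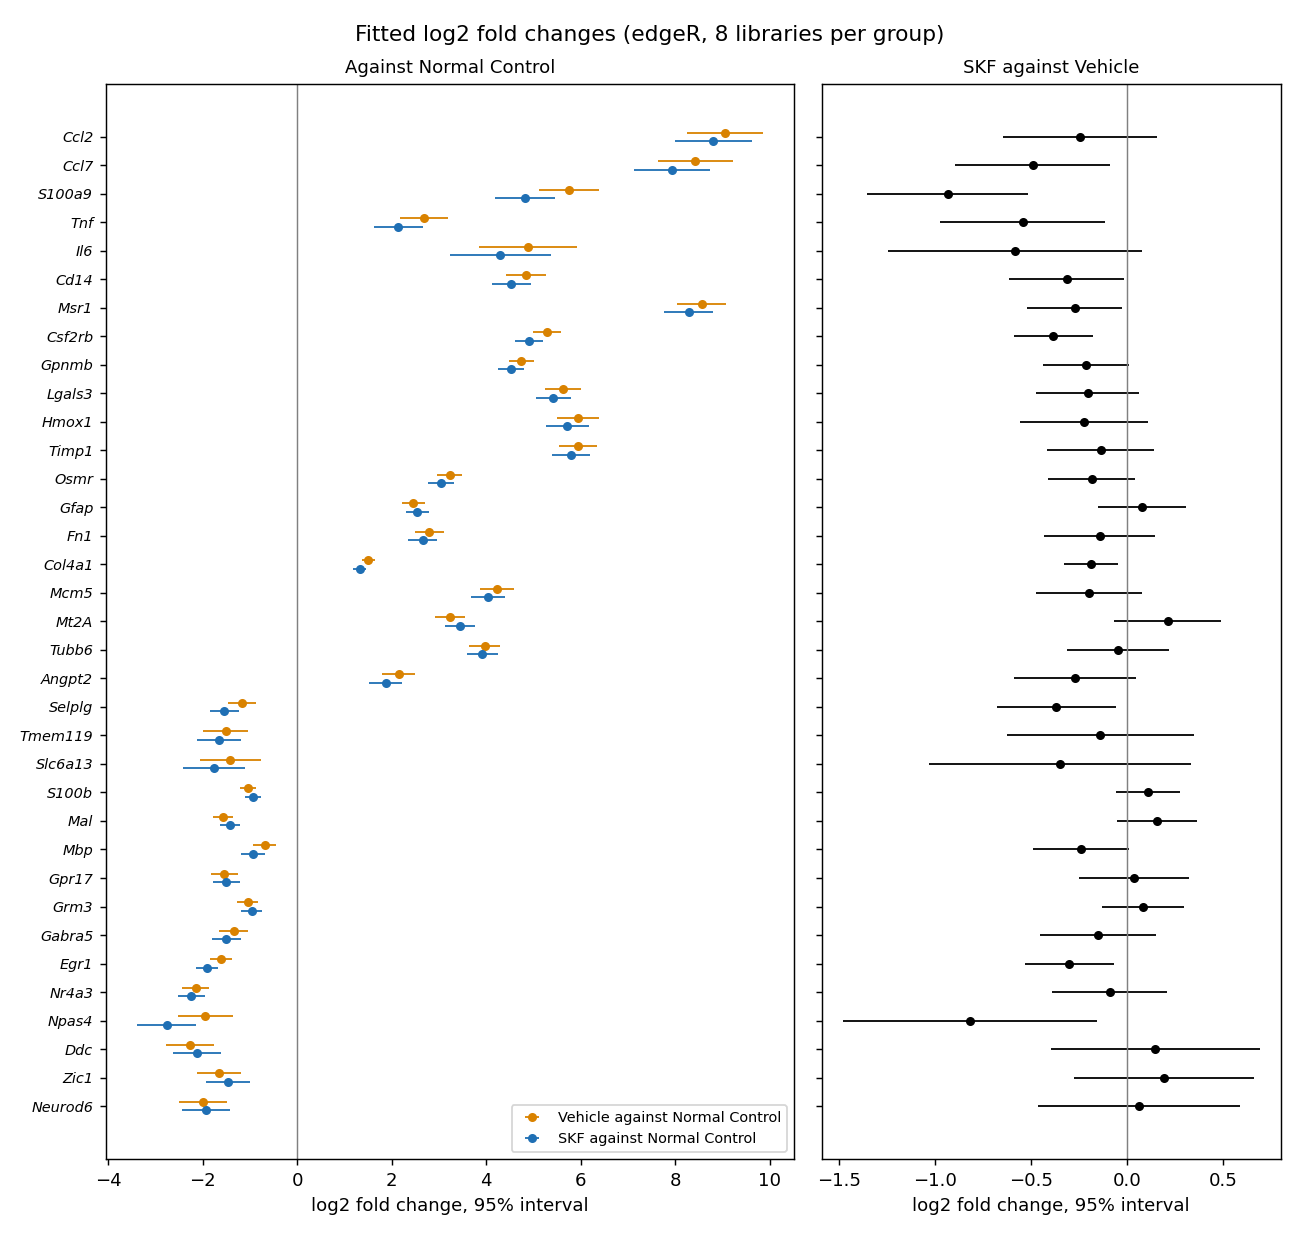
Points give the log2 difference of 35 named genes with 95% intervals, for SKF against Normal Control and Vehicle against Normal Control on the same axis, and for SKF against Vehicle beside them. The first 2 share the Normal Control libraries, and Gfap lies at 2.54 in SKF and 2.46 in Vehicle, with 0.08 between SKF and Vehicle.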

How the data were processed

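The deposited files hold, for 24 samples, a table of read counts per gene and a table of TPM (transcripts per 1000000), both made by the authors on mRatBN7.2, per the submitters' processing notes. The aligner and counter were not given in the sources used here. Groups were taken from the sample titles. Deposited counts of all 24 libraries were fitted in 1 model with edgeR 4.0.16 (R 4.3.3; filterByExpr, TMM, robust quasi-likelihood F test, 21 residual degrees of freedom), and p-values were adjusted by Benjamini-Hochberg over 14421 genes with a threshold of 0.05. Errors are approximate standard errors of the log2 difference, taken as its absolute value divided by the square root of the F statistic. The 95% intervals use these errors. CPM use TMM library sizes, and list scores a prior count of 2. The authors' TPM served only as an alternative, with limma 3.58.1, pseudocounts of 1 and 0.1, and genes of at least 0.5 TPM in 8 libraries. DESeq2 1.42.0, other scalings, filters and sample sets were also run, and the model was tested on simulated data. The biological coefficient of variation was 16.2%.

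The 43 lists hold 811 genes, of which 745 are in the table and 675 were tested. Members and lists were chosen with earlier results of these data known. Named genes are the 6 largest rises and 6 largest falls among genes called in every fit that left out 1 library, averaging 1 log2 CPM or more. The rule added the 2 members of each list with the smallest adjusted p, the largest called member against the majority, and 12 fixed genes. Every further list member was named after its values were seen. The interferon motif was added after the other motifs had been counted. Library pairs had correlations of at most 0.986 and none was identical. Some genes are not reported here.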

Additional observations from a re-analysis of the deposited data

Results flagged for a closer look

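Of 229 groups of 8 libraries examined gene by gene, 21 (9.17%) held a library whose gap to its nearest neighbour exceeded Dixon's 95% limit. That limit is passed by about 1 in 20 groups of independent, normally distributed values. CPM can be skewed and some of these genes move together, so the shares cannot be compared. Values are CPM of the named library.

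Normal Control 6 was the highest control for Drd1 (253), Drd2 (201.3), Pde10a (446) and Mcm5 (3.25). Normal Control 4 was the highest for Acta1 (821.7), Myh4 (681), Col4a1 (95.2) and Hspb1 (23.2). Normal Control 3 stood apart for Aif1 (10.1), Cd44 (12.1) and Tubb6 (10.1), Normal Control 2 for Il6 (0.382) and Npas4 (11.1), and Normal Control 5 for Hcrt (6.58).

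In the agonist group SKF 8 was the highest library for Drd1 (75.7), Drd2 (50.1) and Pde10a (78.1). Single SKF libraries stood apart for Angpt2 (SKF 6, 20.5, next 14.2) and Mbp (SKF 7, 6256, next 4742). The same held for Mcemp1 (SKF 1, 10.9, next 8.28) and Wnt9b (SKF 4, 8.05, next 3.12).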

How the results depend on the processing

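The count of SKF against Normal Control calls ranged from 6885 to 7331 when 1 library was left out (higher 3450 to 3788, lower 3351 to 3543), and 6180 genes were called in all of those fits. Vehicle against Normal Control ranged from 7447 to 7845 (higher 3671 to 3962, lower 3733 to 3893) and SKF against Vehicle from 0 to 0. On TPM the lower calls were 2296 with a pseudocount of 1 and 2252 with 0.1 (higher 4996 and 5019, median shifts 0.0985 and 0.107), and for Vehicle 2408 and 2358 (higher 5476 and 5480); the cause was not tested. DESeq2 called 6 genes in SKF against Vehicle, 1 higher and 5 lower. With the replicate number as a block the calls were 6830 (3539 higher, 3291 lower), and 5 of the 117 named genes lost their call. Same-numbered SKF and Normal Control libraries had correlations of -0.186 to 0.044 after the average of each group was subtracted. Vehicle libraries were not compared in this way, and differences in the piece of tissue enter these values. Whether same-numbered samples share a batch was not tested. Acta1 reversed to 0.12 (adjusted p = 0.596) without Normal Control 4 and 6. Genes with a few counts per library, such as Il6 and Cd8a, are limited by depth.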
